A study of Mus musculus with 10 samples.

Results

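Complex I assembly factors are proteins that help to build complex I, the first enzyme of the mitochondrial respiratory chain, and are not kept in the finished enzyme. The 10 genes described here are Ndufaf1, Ndufaf2, Ndufaf3, Ndufaf4, Ndufaf5, Ndufaf6, Ndufaf7, Ecsit, Acad9 and Timmdc1. They were chosen by name, as the probe sets whose only annotated gene symbol was one of them. Each of the 10 had 1 such probe set, and all 10 were bright enough to be tested, among 19938 measured and 13957 tested genes.

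RNA from both ventricles of the heart was measured in 10 mice on Affymetrix mouse gene arrays, 1 for each mouse. All 10 mice lacked the coactivator PGC-1α (PGC-1a-/-) per the labels. The 5 tamoxifen-labelled mice (titled PGC-1a-/-bf/f/MerCre) carried floxed PGC-1β and MerCre, a Cre recombinase switched on by tamoxifen, and had received 50 mg/kg of tamoxifen per day in sunflower seed oil on 2 days in a row at 2 months of age. The 5 vehicle-labelled mice (titled PGC-1a-/-) had received the oil alone at the same age; their source names also give them bf/f/MerCre, while their titles do not. Hearts were taken 1 month later, at 3 months of age. The labels do not name the promoter that drives MerCre, and the vehicle-labelled mice received no tamoxifen, so an effect of the drug or of active Cre cannot be told apart from loss of PGC-1β. The question is how adult hearts that already lack PGC-1α respond to deletion of PGC-1β.

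Complex I takes electrons from NADH, passes them to ubiquinone and pumps protons across the inner membrane. It is built from separate parts: the N module, where NADH binds, the Q module, where ubiquinone is reduced, and the membrane arm, whose core subunits come from mitochondrial DNA. Assembly factors bind these parts on the way; most of their roles were worked out in human cells. PGC-1α and PGC-1β are known for raising genes of mitochondrial respiration in heart muscle.

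Signals are on the log2 scale. Each log2 fold change is tamoxifen-labelled minus vehicle-labelled and is given with its SE after ±, and a gene is called at an adjusted p of 0.05 in limma, adjusted over all tested genes. Every direction rests on the labels. The probe set of Ppargc1b (PGC-1β), the gene labelled as deleted, read 9.93, 10.15, 10.11, 9.93 and 10.03 in the tamoxifen-labelled arrays and 9.76, 9.69, 9.82, 9.65 and 9.90 in the vehicle-labelled arrays, so it was higher where it is labelled as deleted (0.27 ± 0.061, limma adjusted p = 0.00529). Ppargc1a (PGC-1α) read 11.20 ± 0.23 in the tamoxifen-labelled and 10.81 ± 0.14 in the vehicle-labelled arrays (SD, n = 5 each), although both groups are labelled as lacking it. This difference, 0.39 ± 0.095, was called too (limma adjusted p = 0.00814). These signals do not show either deletion. The labels do not say which exons were deleted, and a probe set outside them could not show it. Array medians were 7.18 to 7.31, with tamoxifen-labelled array 2 the highest. Ventricular cardiomyocyte markers were bright in both groups, with mean log2 signals of 13.63 to 13.67 in the tamoxifen-labelled and 13.63 to 13.65 in the vehicle-labelled arrays. Of the 8, 1 was called higher (Actn2) and 1 lower (Ryr2), against 13.6% and 8.28% of all tested genes. In 3 of the 8 all tamoxifen-labelled values lay above all vehicle-labelled ones, against 10.5% of all tested genes.

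Promoter windows from RefSeq (GRCm38.p6, from 250 bases before to 50 after the annotated start) were at hand for 8 of the 10 genes; Ndufaf6 and Acad9 had none. A set of 4 is shown because these genes span the range of change described below: Ndufaf4 fell furthest, Ecsit and Timmdc1 fell in between, and Ndufaf2 had the smallest difference. Capitals mark matches to the motifs searched. Among the windows not shown, those of Ndufaf1, which fell, and Ndufaf5, which was not called, held 1 match each. Those of Ndufaf3, which fell, and Ndufaf7, which was not called, held 0. The windows lie at chr4:24897833-24898132 on the plus strand for Ndufaf4, and on the minus strand at chr9:22085378-22085677 for Ecsit, chr16:38522614-38522913 for Timmdc1 and chr13:108158576-108158875 for Ndufaf2.
Ndufaf4: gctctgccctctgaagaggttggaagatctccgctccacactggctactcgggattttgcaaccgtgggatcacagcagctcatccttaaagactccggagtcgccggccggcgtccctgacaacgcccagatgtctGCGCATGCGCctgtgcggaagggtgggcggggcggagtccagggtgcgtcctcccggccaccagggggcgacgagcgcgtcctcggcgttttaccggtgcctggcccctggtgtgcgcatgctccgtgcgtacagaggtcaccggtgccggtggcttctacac
Ecsit: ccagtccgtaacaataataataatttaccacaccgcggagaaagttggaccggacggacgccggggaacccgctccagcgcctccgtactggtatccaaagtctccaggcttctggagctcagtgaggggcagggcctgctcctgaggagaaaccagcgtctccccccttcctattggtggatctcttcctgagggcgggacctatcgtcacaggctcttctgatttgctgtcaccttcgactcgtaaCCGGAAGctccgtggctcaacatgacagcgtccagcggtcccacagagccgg
Timmdc1: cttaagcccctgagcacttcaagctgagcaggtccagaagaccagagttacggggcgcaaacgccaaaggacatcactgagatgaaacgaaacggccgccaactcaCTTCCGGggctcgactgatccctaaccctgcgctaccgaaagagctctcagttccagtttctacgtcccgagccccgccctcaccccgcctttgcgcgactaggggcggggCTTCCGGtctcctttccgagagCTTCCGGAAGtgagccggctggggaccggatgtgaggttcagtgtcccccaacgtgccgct
Ndufaf2: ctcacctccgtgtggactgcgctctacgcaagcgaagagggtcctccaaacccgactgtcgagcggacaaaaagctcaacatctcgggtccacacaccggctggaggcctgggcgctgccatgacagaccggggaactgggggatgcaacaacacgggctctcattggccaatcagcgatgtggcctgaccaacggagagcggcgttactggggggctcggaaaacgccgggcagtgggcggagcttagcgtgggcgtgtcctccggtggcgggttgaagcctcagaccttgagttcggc

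Each motif was searched on both strands. The palindromic NRF1 motif was in the windows of Ndufaf4 (113 to 104 bases before the start) and Ndufaf5 (17 to 26 bases into the transcript), both times as GCGCATGCGC, 2 of 8, against 4.6% of all 32851 windows. The GABP (NRF2) motif CCGGAAG was in those of Ndufaf1, Ecsit and Timmdc1, 3 of 8, against 8.86% of all windows. Timmdc1 held it at 4 places, 2 of which overlap in the run CTTCCGGAAG next to the start. The ERR site AAGGTCA, its extended form TCAAGGTCA, which contains the shorter one, and the YY1 motif matched in 0 of 8, against 4.72%, 0.423% and 0.633% of all windows. These letters are not in these windows, which says nothing about the factors. The 8 windows held 50.3% to 66.0% G and C, against a median of 52.7% over all windows.

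Most of the assembly factors were lower in the tamoxifen-labelled ventricles. Of the 10, 7 fell, with log2 fold changes of -0.24 to -0.92, and the other 3 (Ndufaf2, Ndufaf5 and Ndufaf7) did not pass the test. Among all tested genes 8.28% were called lower and 13.6% higher. In the same 7 genes all 5 tamoxifen-labelled values lay below all 5 vehicle-labelled ones, against 6.12% of all genes with this pattern and 10.5% with the opposite one. The 10 fold changes were all below 0 and had a median of -0.34, against 0.014 over all tested genes. Ndufaf4 alone changed by 1.5-fold or more. These are bulk samples, in which fewer cells of a type and less RNA per cell cannot be told apart.

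**Figure D1:**
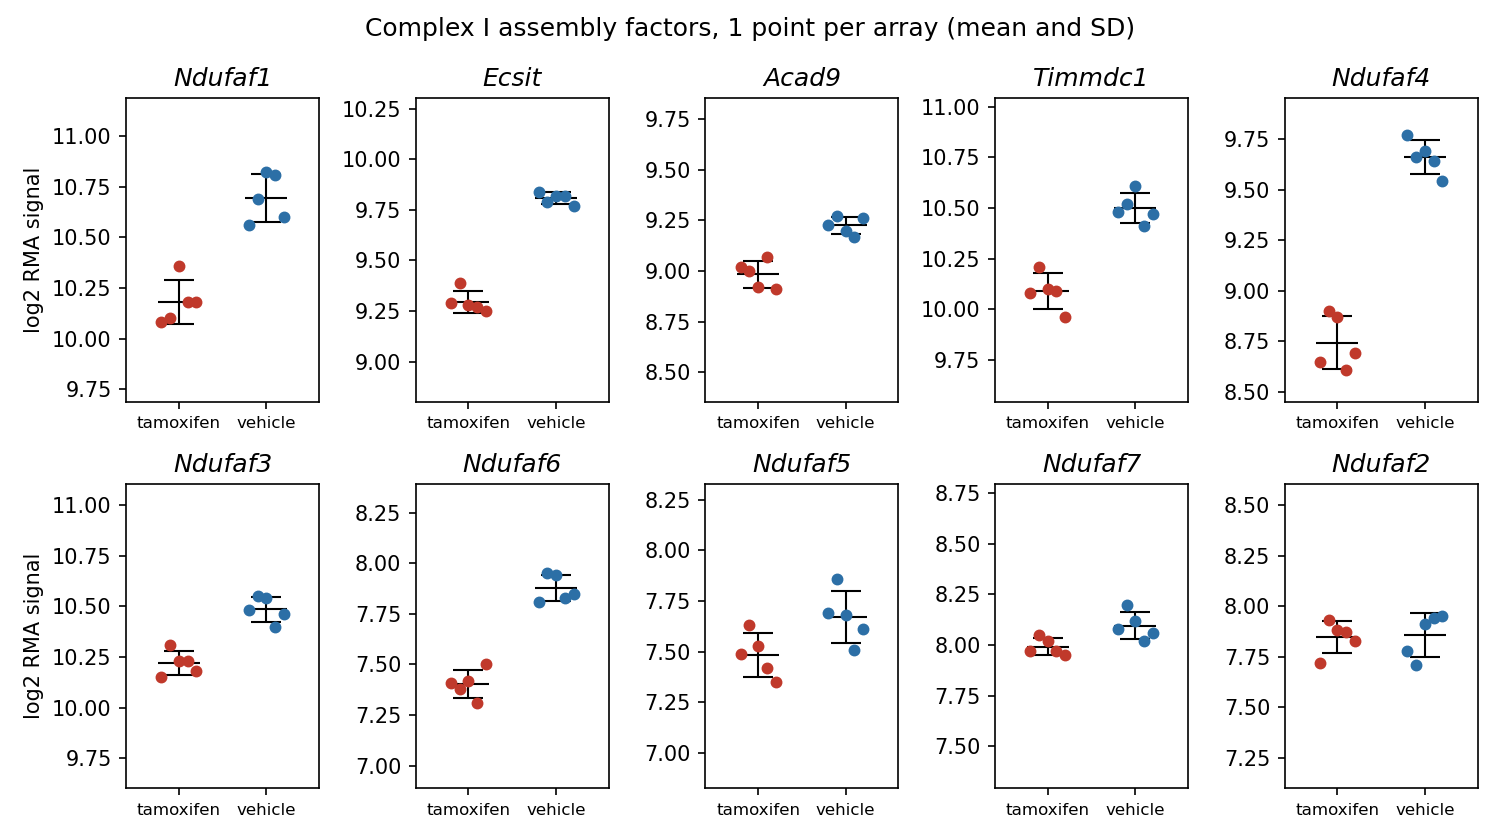
Log2 RMA signal (vertical axis, the same span in each panel) of the 10 complex I assembly factors in the 5 tamoxifen-labelled (red, left) and 5 vehicle-labelled arrays (blue, right), with 1 point per array and black bars for the mean and SD. The groups are separate in 7 panels and overlap in those of Ndufaf5, Ndufaf7 and Ndufaf2.

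Ndufaf1, Ecsit and Acad9 make up the core of the MCIA complex, which in human cells builds the part of the membrane arm around the mitochondrial subunit ND2. Ndufaf1, a scaffold of this complex, read 10.08, 10.10, 10.36, 10.18 and 10.18 in tamoxifen-labelled arrays 1 to 5 and 10.56, 10.69, 10.82, 10.81 and 10.60 in vehicle-labelled arrays 1 to 5. Tamoxifen-labelled array 3 was the highest of its group and still lay 0.20 below the lowest vehicle-labelled array. The fall was 0.52 ± 0.066 on the log2 scale (1.43-fold lower, limma adjusted p = 3.01e-05).

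Ecsit, which is also known as an adaptor in Toll-like receptor signalling, read 9.29, 9.39, 9.28, 9.27 and 9.25 in the tamoxifen-labelled arrays and 9.84, 9.79, 9.82, 9.82 and 9.77 in the vehicle-labelled arrays. Its vehicle-labelled values were the tightest of all 10 genes, spanning 0.07, and the groups were 0.38 apart. It fell by 0.51 ± 0.046 (1.43-fold lower, limma adjusted p = 5.61e-07), nearly the same fall as Ndufaf1.

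Acad9, a member of the acyl-CoA dehydrogenase family, read 9.02, 9.0, 8.92, 9.07 and 8.91 in the tamoxifen-labelled arrays and 9.23, 9.27, 9.20, 9.17 and 9.26 in the vehicle-labelled arrays. The groups did not overlap but came within 0.10 of each other. Its fall of 0.24 ± 0.049 (1.18-fold lower, limma adjusted p = 0.00192) was the smallest of the 7 called.

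Timmdc1, a membrane protein needed in human cells for the part of the arm around the mitochondrial subunit ND1, read 10.08, 10.21, 10.10, 10.09 and 9.96 in the tamoxifen-labelled arrays and 10.48, 10.52, 10.61, 10.41 and 10.47 in the vehicle-labelled arrays. Every tamoxifen-labelled value lay at least 0.20 below every vehicle-labelled one. It fell by 0.41 ± 0.055 (1.33-fold lower, limma adjusted p = 5.24e-05). All 4 of these genes fell, where 8.28% of all tested genes were called lower. Of the 6 other complex I assembly factors described below, 2 fell (Foxred1 and Tmem126a). The other 4 did not pass: the MCIA partner Tmem126b, Tmem186, Dmac1 and Nubpl.

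Ndufaf3 and Ndufaf4 encode partners that bind each other and the subunits of the Q module. Ndufaf4 read 8.65, 8.90, 8.87, 8.61 and 8.69 in the tamoxifen-labelled arrays and 9.77, 9.66, 9.69, 9.64 and 9.54 in the vehicle-labelled arrays. The gap between the groups, 0.64, was larger than the span within either (0.29 in the tamoxifen-labelled and 0.23 in the vehicle-labelled arrays). Ndufaf4 fell by 0.92 ± 0.065 (1.89-fold lower, to 53.0% of the vehicle-labelled mean signal, limma adjusted p = 4.05e-08). Only 0.258% of the tested genes had a lower fold change.

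Ndufaf3 read 10.15, 10.31, 10.23, 10.23 and 10.18 in the tamoxifen-labelled arrays and 10.48, 10.55, 10.54, 10.40 and 10.46 in the vehicle-labelled arrays. Here the groups were 0.09 apart, with tamoxifen-labelled array 2 nearest to vehicle-labelled array 4. It fell by 0.27 ± 0.050 (1.20-fold lower, limma adjusted p = 0.00109).

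Ndufaf6, which resembles phytoene and squalene synthases and is needed in human cells at an early step that involves ND1, read 7.41, 7.38, 7.42, 7.31 and 7.50 in the tamoxifen-labelled arrays and 7.81, 7.95, 7.94, 7.83 and 7.85 in the vehicle-labelled arrays. The groups lay 0.31 apart. It fell by 0.47 ± 0.051 (1.39-fold lower, limma adjusted p = 4.87e-06).

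Ndufaf5 and Ndufaf7 encode enzymes that modify subunits of the Q module. Ndufaf5, which hydroxylates the subunit Ndufs7, read 7.49, 7.63, 7.53, 7.42 and 7.35 in the tamoxifen-labelled arrays and 7.69, 7.86, 7.68, 7.51 and 7.61 in the vehicle-labelled arrays. The groups overlapped through tamoxifen-labelled arrays 2 and 3 and vehicle-labelled arrays 4 and 5. The difference was -0.19 ± 0.067 and missed the threshold (limma adjusted p = 0.0593, 95% interval -0.33 to -0.043). It passed with the replicate number as a block (adjusted p = 0.0134), with array weights (0.00632), after quantile normalization (0.0279) or median centring (0.0397), and without tamoxifen-labelled array 2 (0.0269) or vehicle-labelled array 4 (0.0247), over a range of 0.00632 to 0.186 in all alternatives.

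Ndufaf7, a methyltransferase, read 7.97, 8.05, 8.02, 7.97 and 7.95 in the tamoxifen-labelled arrays and 8.08, 8.20, 8.12, 8.02 and 8.06 in the vehicle-labelled arrays. The overlap was narrow, with tamoxifen-labelled array 2 above vehicle-labelled array 4. The difference was -0.10 ± 0.049 (limma adjusted p = 0.145, 95% interval -0.21 to -0.00075). It passed with array weights (adjusted p = 0.0284) and after quantile normalization (0.0339), and ranged from 0.0284 to 0.318 in all alternatives.

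Ndufaf2, a paralogue of the subunit Ndufa12, acts late in assembly, where it sits at the place that Ndufa12 takes in the finished enzyme. It read 7.72, 7.93, 7.88, 7.87 and 7.83 in the tamoxifen-labelled arrays and 7.78, 7.71, 7.91, 7.94 and 7.95 in the vehicle-labelled arrays. The 2 groups covered almost the same span. The difference was -0.012 ± 0.059 (limma adjusted p = 0.916), with a 95% interval of -0.14 to 0.11, which holds none of the fold changes of the 7 genes that fell.

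**Figure D2:**
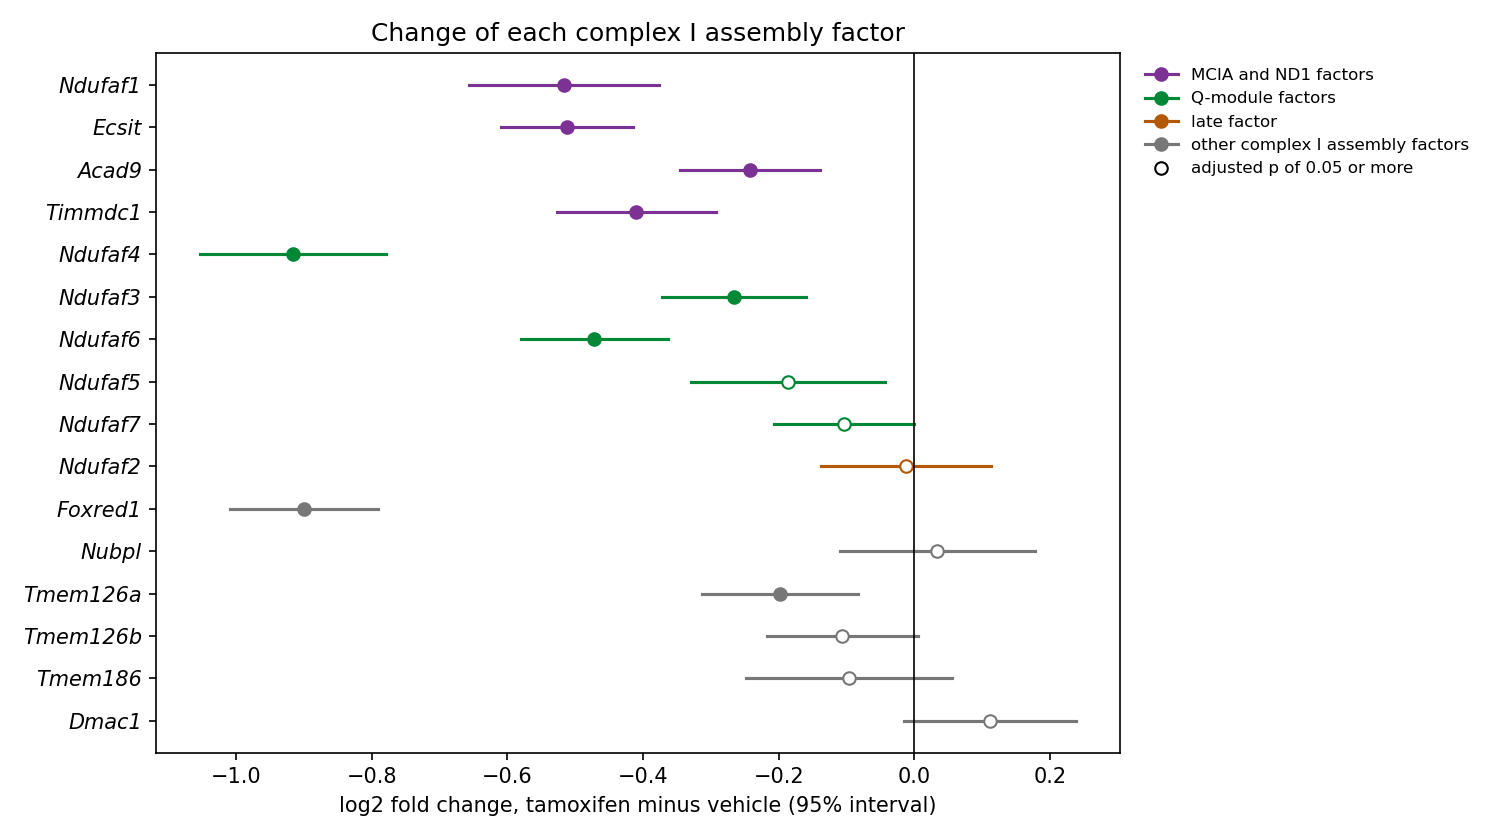
Log2 fold change (horizontal axis, tamoxifen-labelled minus vehicle-labelled) with its 95% interval for the 10 genes, coloured by role, and for 6 other complex I assembly factors in grey; open circles did not reach an adjusted p below 0.05. Ndufaf4 (-0.92) and Foxred1 (-0.90) lie furthest to the left. Among the 10 genes only the interval of Ndufaf2 spans 0, and among the 6 others those of Nubpl, Tmem126b, Tmem186 and Dmac1 do.

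In order of fall, the genes ran Ndufaf4, Ndufaf1, Ecsit, Ndufaf6, Timmdc1, Ndufaf3, Acad9, Ndufaf5, Ndufaf7 and Ndufaf2. The 95% interval of Ndufaf4 (-1.05 to -0.78) lay below that of the next gene, Ndufaf1 (-0.66 to -0.38), while the intervals of all other neighbours in this order overlapped. The genes not called were among the dimmest, with vehicle-labelled means of 7.67 (Ndufaf5), 7.86 (Ndufaf2) and 8.10 (Ndufaf7). Ndufaf6, which fell, was as dim (7.88), and the others had means of 9.23 or more. Whether low signal made the measured changes smaller was not tested.

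A total of 8 pairs of genes with a known relation, chosen after the values were seen, is described here without a test. Each value is the difference of the pair's log2 fold changes. The SE of a pair's difference comes from the spread of its within-array differences in each group, not from limma as elsewhere. The difference of Ndufaf4 from its partner Ndufaf3 was -0.65 ± 0.059. Within single arrays the log2 signal of Ndufaf4 minus that of Ndufaf3 was -1.62 to -1.36 in the tamoxifen-labelled arrays and -0.92 to -0.71 in the vehicle-labelled ones. Within the MCIA complex, Ecsit differed from Acad9 by -0.27 ± 0.044, Ndufaf1 from Acad9 by -0.27 ± 0.098 and Ndufaf1 from Ecsit by -0.0040 ± 0.082.

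Of the paralogues, Ndufa12 fell by 0.64 ± 0.062 (limma adjusted p = 1.39e-06), and the log2 fold change of Ndufaf2 minus that of Ndufa12 was 0.63 ± 0.068. Acadvl, the very long chain acyl-CoA dehydrogenase of fatty acid oxidation and a close relative of Acad9, fell by 0.68 ± 0.048, and the value for Acad9 minus that for Acadvl was 0.43 ± 0.033. The enzymes Ndufaf5 and Ndufaf7 differed from each other by -0.082 ± 0.042. Ndufaf5 differed by 0.15 ± 0.082 from Ndufs7, the subunit it hydroxylates, which fell by 0.34 ± 0.046. Ndufaf2 and Ndufaf5 were much dimmer (vehicle-labelled means of 7.86 and 7.67) than Ndufa12 (11.19) and Ndufs7 (14.04).

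Of 34 tested nuclear complex I subunits, which these factors help to assemble, 34 fell, against 8.28% of all tested genes, with a median log2 fold change of -0.63 (-1.24 to -0.23). By module, the median was -0.54 in the N module (8 of 8 lower, Ndufv1, which binds NADH, by 1.15 ± 0.051), -0.69 in the Q module (7 of 7, Ndufa9 by 1.05 ± 0.048), -0.50 in the proximal membrane arm (9 of 9, Ndufa10 by 0.96 ± 0.051) and -0.86 in the distal membrane arm (10 of 10, Ndufb7 by 1.03 ± 0.050). Each assembly factor was then tested against the mean of the subunits, by fitting every gene's log2 signal minus that mean in the same array. Ndufaf4 lay below the subunit mean, with a difference of -0.22 ± 0.063 (limma adjusted p = 0.00189), a call made for 0.43% of all tested genes; against the median of the subunits it did not pass (-0.10, adjusted p = 0.0996). The other 9 lay above the subunit mean, as did 98.8% of all tested genes, so this count says nothing particular of them. Among these 9 the smallest differences were those of Ndufaf1 (0.18 ± 0.064, limma adjusted p = 0.0106, and 0.0649 when tamoxifen-labelled arrays 3 and 5 were left out), Ecsit (0.18 ± 0.058, adjusted p = 0.00468) and Ndufaf6 (0.22 ± 0.062, adjusted p = 0.00173), and the largest was that of Ndufaf2 (0.68 ± 0.062, adjusted p = 3.33e-10).

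**Figure D3:**
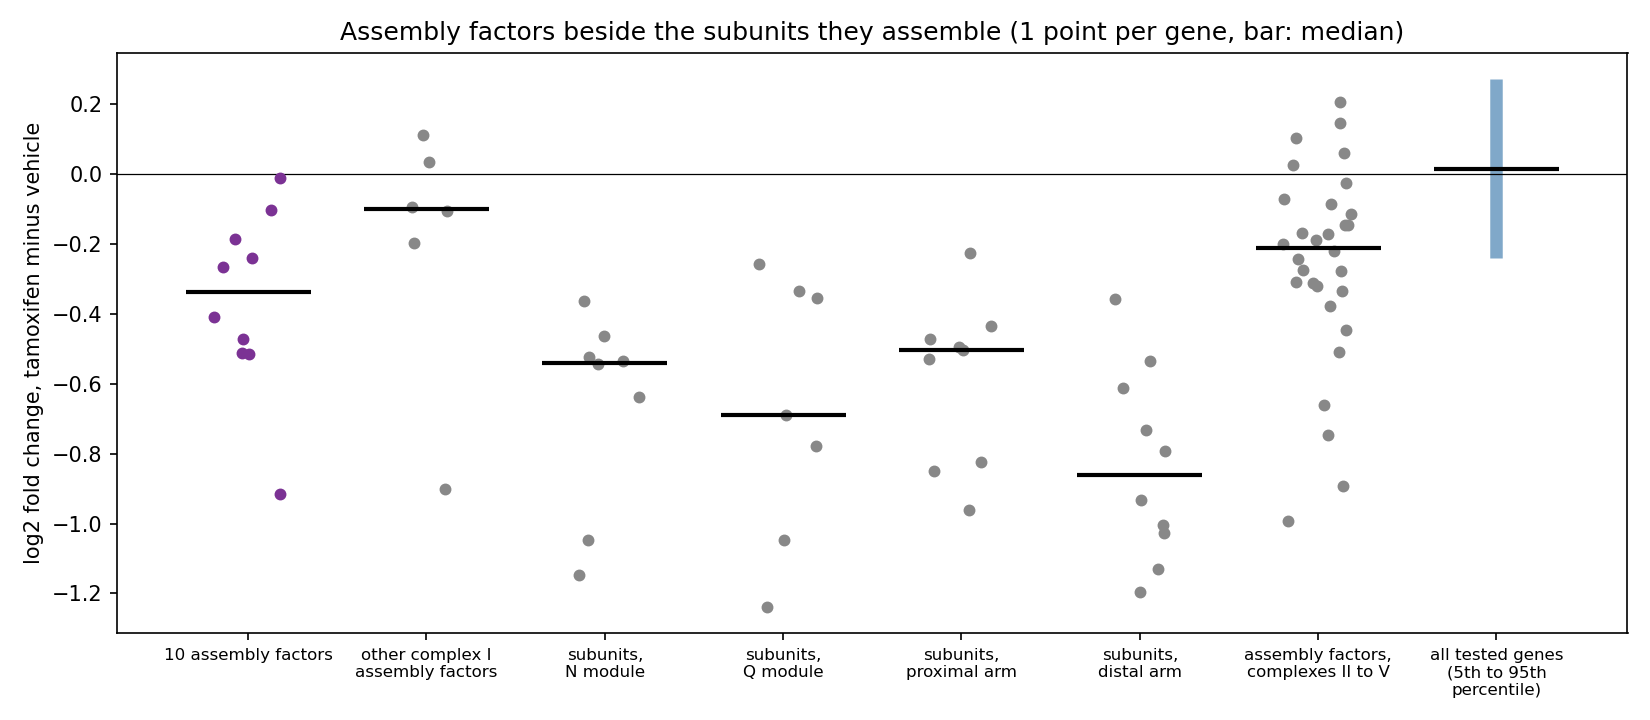
Log2 fold change (vertical axis, tamoxifen-labelled minus vehicle-labelled) with 1 point per gene and a black bar at each group's median, for the 10 assembly factors (purple), other complex I assembly factors, complex I subunits by module, assembly factors of other complexes, and the 5th to 95th percentile of all tested genes (blue). The median is -0.34 for the 10 genes, -0.50 to -0.86 for the subunit modules and 0.014 for all tested genes.

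Of 6 other complex I assembly factors tested, 2 fell, against 8.28% of all tested genes, and the median log2 fold change was -0.10. Foxred1, which resembles FAD-dependent oxidoreductases, read 9.02, 9.15, 8.99, 9.07 and 8.99 in the tamoxifen-labelled arrays and 9.96, 10.03, 9.93, 9.96 and 9.84 in the vehicle-labelled arrays. It fell by 0.90 ± 0.052 (limma adjusted p = 5.14e-09), close to Ndufaf4 in size. Tmem126a, a membrane arm factor, fell by 0.20 ± 0.054 (limma adjusted p = 0.0153) with overlapping groups. The MCIA partner Tmem126b had a difference of -0.11 ± 0.052 (limma adjusted p = 0.167). Neither Nubpl, which delivers iron-sulfur clusters (0.034 ± 0.068, adjusted p = 0.774), nor Tmem186 (-0.096 ± 0.072, adjusted p = 0.376) nor Dmac1 (0.11 ± 0.060, adjusted p = 0.203) passed the limma test. Of 30 tested assembly factors of complexes II, III, IV and V, 19 fell, with a median of -0.21 (-0.99 to 0.20). The lowest p-values were those of Cox10, which makes haem for complex IV (-0.75 ± 0.050), and the complex III factors Uqcc1 (-0.89 ± 0.063) and Lyrm7 (-0.99 ± 0.084).

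The 3 tested genes whose profile lay nearest to that of Ndufaf4 were sought by the Euclidean distance between log2 values centred on their mean over the 10 arrays. They were Tbrg4 (distance 0.134), Mrpl55 (0.156) and Ptgr2 (0.203), whose log2 fold changes were -0.87, -0.88 and -0.96. They were chosen for their likeness over these arrays, so a shared pattern among the 4 genes is given by the choice.

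**Figure D4:**
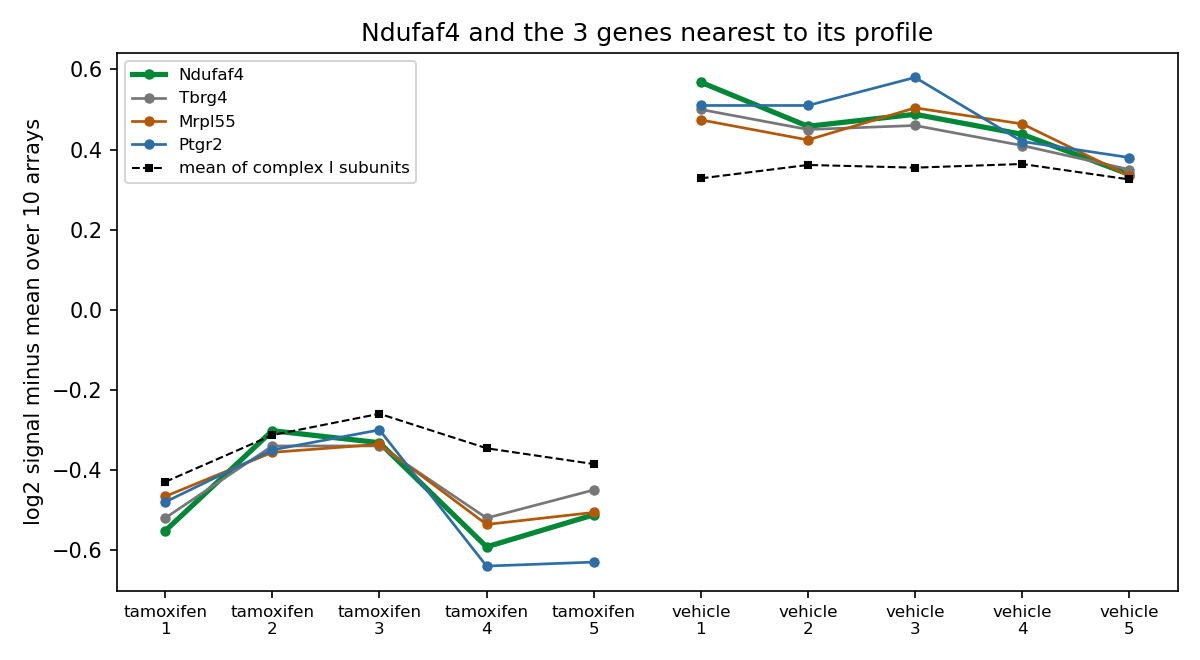
Log2 signal of Ndufaf4 (thick green), Tbrg4, Mrpl55 and Ptgr2 in each array, minus each gene's mean over the 10 arrays, with the mean of 34 complex I subunits (dashed) for comparison; lines join arrays of a group to guide the eye and the arrays have no order. All 4 genes drop below 0 in the tamoxifen-labelled and lie above 0 in the vehicle-labelled arrays, with a wider step than the subunit mean.

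The spread between arrays was partly shared. As deposited, tamoxifen-labelled array 2 had the highest value of its group in 7 of the 10 genes, and vehicle-labelled array 4 the lowest of its group in 5. After quantile normalization tamoxifen-labelled array 2 was the highest in 0 and array 3 in 8 of the 10, so the order of arrays within a group depended on the scaling. The mean over the 10 genes was 8.78 to 8.89 in the tamoxifen-labelled and 9.16 to 9.23 in the vehicle-labelled arrays.

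Most macrophage and fibroblast markers were higher in the tamoxifen-labelled arrays, where 13.6% of all tested genes were called higher. Of 10 macrophage markers 8 were called higher, with a mean log2 signal of 8.93 to 9.23 in the tamoxifen-labelled and 8.71 to 8.93 in the vehicle-labelled arrays. Of 9 fibroblast markers 6 were higher, with means of 9.89 to 10.12 in the tamoxifen-labelled and 9.68 to 9.84 in the vehicle-labelled arrays. Smooth muscle and pericyte markers (2 of 6 higher) averaged 10.06 to 10.23 in the tamoxifen-labelled and 9.98 to 10.04 in the vehicle-labelled arrays. Endothelial markers (1 of 8 higher) overlapped in their means, which were 10.34 to 10.53 in the tamoxifen-labelled and 10.29 to 10.48 in the vehicle-labelled arrays. The part of these cell types in the fall of the assembly factors was not tested. Of the skeletal muscle markers, Acta1 and Ckm, which the heart also makes, were higher, and Myh4, Myh1 and Mylpf were too dim to be tested. Actn3 was tested and not called (0.11 ± 0.066, limma adjusted p = 0.245). None of the markers of lymphocytes, granulocytes, erythroid cells or fat cells that could be tested was called (2, 1, 1 and 1 genes; 0 by limma at an adjusted or an unadjusted p of 0.05). Of the atrial markers, 1 of 4 was higher, Nppa, which stressed ventricles also make, while Myl4, Myl7 and Sln did not pass the limma test. The mean log2 signal of the 4 spread more widely in the tamoxifen-labelled arrays, with 10.09 to 11.11 in the tamoxifen-labelled and 10.46 to 10.65 in the vehicle-labelled arrays. Myl7, an atrial myosin light chain, read 8.99, 10.03, 8.81, 9.64 and 10.54 in the tamoxifen-labelled arrays and 9.70 to 10.04 in the vehicle-labelled arrays. Myl4 was likewise lowest in tamoxifen-labelled array 3 (11.04) and highest in array 5 (12.26), against 11.63 to 11.97 in the vehicle-labelled arrays. Array 5 had the lowest value of its group in 5 of the 10 assembly factors as deposited, and in 2 after quantile normalization. With arrays 3 and 5 both left out, an alternative chosen after seeing the data, the same 7 of the 10 genes were called lower and Ndufaf4 fell by 0.94 (limma adjusted p = 2.55e-06).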

How the data were processed

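The deposited values are log2 signals per probe set, which the authors made, per the submitters' processing notes, in Affymetrix Expression Console 1.1 with RMA, from biotin-labelled DNA made from 450 ng of total RNA per the labels' protocols. They carry no detection call, and genome build and annotation are not given in the sources used here. No 2 arrays were identical. Nothing in the labels says more of how the mice were kept or handled. The p-values rest on the spread between arrays within each group, which takes in no handling difference between the groups.

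Of 35556 probe sets, 21789 had 1 gene symbol in the platform annotation, 1621 several and 12146 none. A gene name was taken only where a probe set had 1 symbol, using the brightest by mean over all arrays, and the dimmest 30% of genes were left out. Near-identical copies and pseudogenes that a probe set can also bind were not separated. Groups came from the labels. A two-sided test in limma 3.58.1 (R 4.3.3; lmFit and eBayes without covariates, Benjamini-Hochberg over 13957 genes) gave all adjusted p-values. Gene pairs and lists were described without a test. The code was tested on simulated data.

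The 10 genes, the lists and the tests were chosen with earlier results of these data known. Named are the 10 genes, the other complex I assembly factors, both PGC-1 genes, up to 3 genes of smallest p per further list, and the 3 nearest profiles; Ndufa12, Ndufs7 and Acadvl were added after their values were seen.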

Additional observations from a re-analysis of the deposited data

Results flagged for a closer look

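Of 20 sets of 5 values (10 genes in 2 groups), 1 held a value far from the others by Dixon's criterion. Ecsit read 9.39 in tamoxifen-labelled array 2, against 9.25 to 9.29 in the other 4 arrays of that group, and a gap of this relative size (0.714 of the group's range, critical value 0.71) arises by chance in about 1 of 20 sets. The same array had the highest median signal over all probe sets, 7.31.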

How the results depend on the processing

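Precision is limited by having 5 arrays in each group. With all 20 alternatives, of which leaving out tamoxifen-labelled arrays 3 and 5 together was chosen after seeing the data, 7 to 9 of the 10 genes were called lower and 0 higher, and Ndufaf1, Ndufaf3, Ndufaf4, Ndufaf6, Ecsit, Acad9 and Timmdc1 passed in each. The replicate numbers were not taken to pair mice in the main fit. Same-numbered arrays deviated together with correlations of 0.0373 to 0.203, and 3 of 5 tamoxifen-labelled arrays correlated best with their own number. Whether the numbers mark related arrays was not tested. With the number as a block, 8 of the 10 and 1297 genes in all were lower, and 2225 were higher. Array weights gave 1784 genes lower in place of 1155, and 9 of the 10. Leaving out 1 array at a time gave 938 to 1649 genes lower and 1491 to 1943 higher. Without tamoxifen-labelled array 2, 1649 were lower and 1621 higher. Ndufaf2 changed sign when tamoxifen-labelled array 1 or vehicle-labelled array 3, 4 or 5 was left out, with log2 fold changes of -0.049 to 0.020 over arrays left out in turn. Ndufaf5 was too dim for the 50% filter and has no value there. Relative to the subunit median, 0 of the 10 lay below it by the test in place of 1, because Ndufaf4 no longer passed (-0.10, adjusted p = 0.0996), and 9 of the 10 lay above it in either case. Without tamoxifen-labelled arrays 3 and 5, 8 of the 10 lay above the subunit mean by the test. The cause was not tested.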
